A study of Mus musculus with 6 samples.

Results

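The G1 cyclins (Ccnd1, Ccnd2, Ccnd3, Ccne1 and Ccne2), their kinases Cdk4 and Cdk6, and the kinase inhibitors Cdkn1a, Cdkn1b and Cdkn1c were followed in mammary fat pads of mice with and without Pxmp2. Members were all probe sets for which the platform annotation gave exactly 1 gene symbol, equal to one of these 10 genes. These 10 genes, of 18193 named on the array, had 27 of its 45037 probe sets, between 1 and 7 for each gene. The study used 3 wild-type (WT) and 3 Pxmp2-/- females on the C57BL/6J strain background, 1 Affymetrix array per mouse, with RNA from fat pads 4 and 9. In both groups the ovaries had been taken out at 21 days of age and estradiol was given at 31 days. Tissue was collected 8 h after the injection. Every mouse had therefore received estradiol, and no uninjected mice are analysed here, so the values compare genotypes and do not measure a response to the hormone. Pxmp2 encodes a channel of the peroxisomal membrane. The sources used here do not say how the allele was made or whether every tissue carries it.

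D-type cyclins are made when growth signals reach a resting cell, and they bind and activate Cdk4 and Cdk6. These kinases phosphorylate the retinoblastoma protein, which frees E2F transcription factors to switch on E-type cyclins and the genes of DNA replication. The Cip/Kip proteins p21 (Cdkn1a), p27 (Cdkn1b) and p57 (Cdkn1c) bind cyclin-kinase complexes and hold back cyclin E complexes in particular. In the mammary gland estradiol starts ductal growth at puberty, and cyclin D1 is known for its part in the growth of the mammary epithelium.

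The genotype labels were checked on Pxmp2 itself. Its probe set 1417841_at read 2643, 2465 and 2797 in WT mice and 308, 262 and 260 arbitrary intensity units in Pxmp2-/- mice. Array medians lay between 98.5 and 105. The upper quartile was lower in every Pxmp2-/- array (448, 442 and 428.5) than in every WT array (456, 455 and 469). The values were not scaled further, so differences of bright probe sets include this shift. Pxmp2-/- 1 lay away from the rest on the second principal component (26.7, the others from -15.7 to 6.61), so values without this mouse are given below. The fat pads held few epithelial transcripts: of 10 luminal markers on the array only 3 were above the level filter described next, and Krt8, Krt18, Epcam, Elf5 and Gata3 were not among them. Of 6 basal markers 3 were above it, without Krt5 and Krt14. All 8 adipocyte markers were. The members' values thus come from a tissue of mixed cells, in which fewer cells of a type and less RNA per cell cannot be told apart.

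No member differed between genotypes past the threshold. A level filter at the 40th percentile of the mean log2 level kept 27022 probe sets, and 24 of the 27 member probe sets, covering all 10 genes, passed it. With limma and Benjamini-Hochberg adjustment over all 27022, 0 of the 24 had an adjusted p under 0.05, against 0.0629% of all tested probe sets. The smallest adjusted p among the members was 0.168. At an unadjusted p under 0.05 there were 5 of 24 (20.8%), beside 16.6% of all tested probe sets. Of these 5, 3 were higher and 2 lower in Pxmp2-/- mice. Genotypes did not overlap in 4 of 24 (16.7%), beside 22.8% of all. Both shares of the members lay near those of the whole array. Several of the 24 read the same gene. With only the brightest probe set of each gene, 1 of 10 (Cdkn1c) had an unadjusted limma p under 0.05. The groups did not overlap in 1 of 10 (Ccnd3). Over all genes taken this way the shares were 14.2% and 22.6%. The median log2 difference (Pxmp2-/- minus WT) of the 24 was 0.02, and that of all tested probe sets was -0.03. Differences and folds were taken from log2(intensity + 16), and the added constant makes those of dim transcripts too small. An exact two-sided permutation test of 3 against 3 mice cannot go below 0.10. It reaches 0.10 only where the groups do not overlap. The 4 of 24 at that value are therefore the 4 counted above, beside 22.8% of all, and not a further result.

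**Figure D1:**
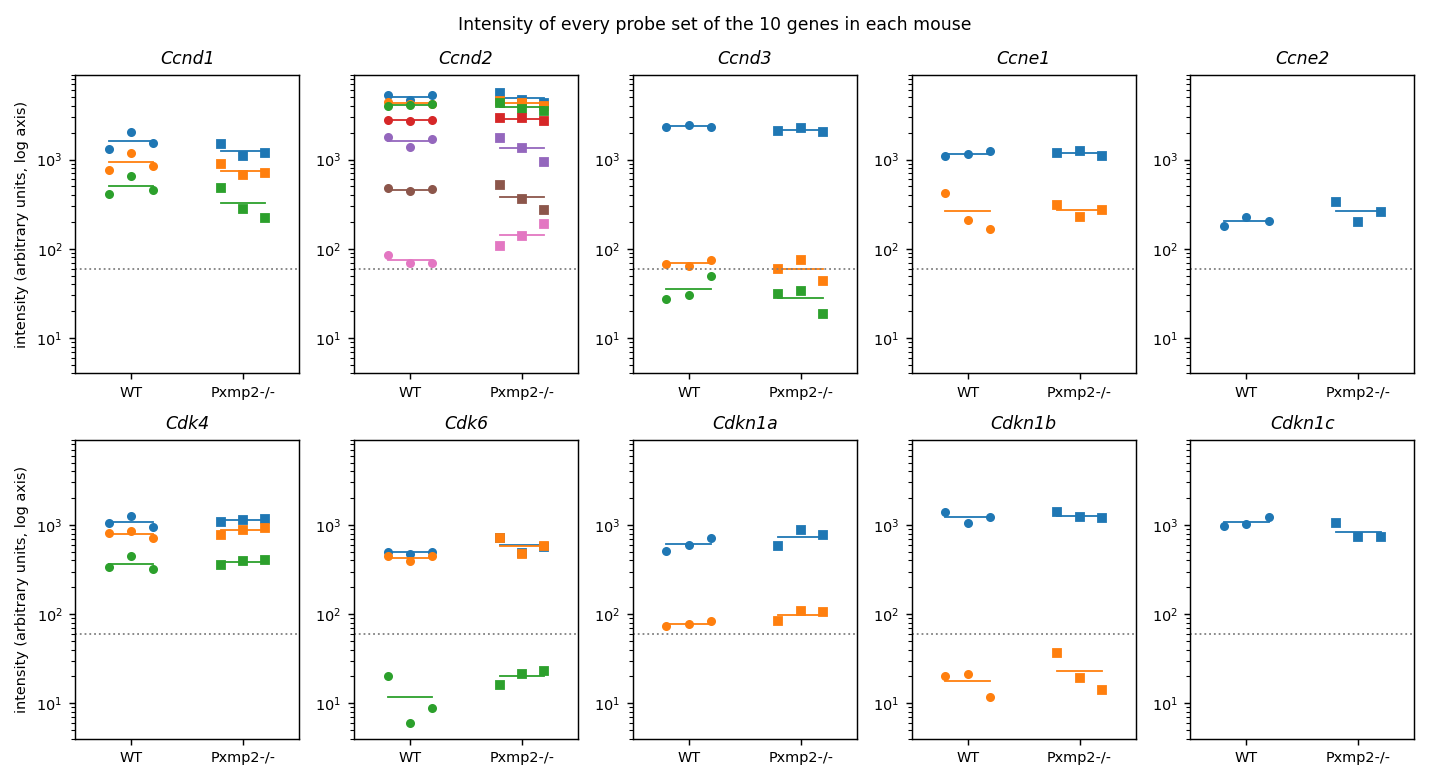
Intensity (arbitrary units, log axis) of all 27 probe sets in each mouse, 1 panel per gene and 1 colour per probe set, with WT mice as circles, Pxmp2-/- mice as squares and bars for the group means. The dotted line is the level filter (59.1), and the 3 probe sets below it belong to Ccnd3, Cdk6 and Cdkn1b.

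Cyclin D1 read lower on average in Pxmp2-/- mice in all 3 of its probe sets, with groups that overlapped in each. The probe set with the highest level, 1417420_at, read 1328, 2024 and 1522 in WT mice and 1514, 1091 and 1176 in Pxmp2-/- mice. WT 2 was the highest mouse and Pxmp2-/- 1 lay within the WT range, while the other Pxmp2-/- mice were below every WT mouse. On the log2 scale it differed by -0.35 ± 0.18 (SE), or was 1.28-fold lower, with a 95% interval from -0.77 to 0.07 and a limma adjusted p of 0.358.

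The same pattern of mice was seen in the other 2 Ccnd1 probe sets. Probe set 1448698_at read 760, 1202 and 849 in WT and 886, 674 and 705 in Pxmp2-/- mice, a log2 difference of -0.29 ± 0.18 (SE). Probe set 1417419_at read 413, 654 and 461 in WT and 475, 278 and 219 in Pxmp2-/- mice. In it the difference was -0.67 ± 0.28 (SE), with an unadjusted limma p of 0.0436 and an adjusted p of 0.288. Without WT 2 the 3 differences shrank to -0.19, -0.10 and -0.48, and without Pxmp2-/- 1 they were -0.49, -0.41 and -0.97. That of 1417419_at was -0.44 without Pxmp2-/- 3.

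Cyclin D2, a D-type cyclin found in many stromal and blood cells, had 7 probe sets that did not move together. In 4 of them the difference was between -0.09 and 0.05 log2. The probe set with the highest level, 1434745_at, read 5267, 4650 and 5332 in WT and 5585, 4632 and 4345 in Pxmp2-/- mice. Its difference of -0.07 ± 0.12 (SE) had an interval from -0.35 to 0.20, so that both a fall of more than 1.27-fold and a rise of more than 1.15-fold lie outside it.

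The remaining Ccnd2 probe sets pointed in opposite directions. The dim probe set 1416124_at read 84.2, 68.6 and 69.5 in WT and 108, 137 and 188 in Pxmp2-/- mice, so every Pxmp2-/- mouse was above every WT mouse. The log2 difference of 0.81 ± 0.18 (SE), or 1.75-fold, was the largest among the members, and its adjusted p of 0.168 did not pass. With single mice left out that adjusted p lay between 0.0686 (without Pxmp2-/- 1) and 0.37 (without WT 3). With all 6 mice it lay between 0.0999 with array weights and 0.358 without the level filter, and a filter at the 60th percentile removed this probe set.

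Probe sets 1448229_s_at and 1416123_at of Ccnd2 went the other way in the same mice. The former read 1791, 1388 and 1709 in WT and 1754, 1354 and 941 in Pxmp2-/- mice, a difference of -0.31 ± 0.22 (SE). The latter read 475, 443 and 464 in WT and 516, 361 and 276 in Pxmp2-/- mice, a difference of -0.30 ± 0.20 (SE). Without Pxmp2-/- 3 the differences were -0.07 and -0.09, and without Pxmp2-/- 1 they were -0.51 and -0.52. Pxmp2-/- 3 was lowest of all mice in both, and highest of all in 1416124_at. The sources used here do not say which part of the transcript each probe set reads.

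Cyclin D3 read slightly lower in Pxmp2-/- mice. Probe set 1415907_at read 2343, 2429 and 2339 in WT and 2081, 2266 and 2049 in Pxmp2-/- mice, and the groups did not overlap. The difference was small, -0.15 ± 0.08 (SE) on the log2 scale or 1.11-fold lower, with an adjusted p of 0.386. The dimmer probe set 1438805_at had overlapping groups and a difference of -0.19 ± 0.15 (SE), which was -0.04 without Pxmp2-/- 3 and -0.34 without Pxmp2-/- 2. Probe set 1444323_at was below the level filter, at 27.6 to 49.8 in WT and 18.6 to 33.7 in Pxmp2-/- mice.

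**Figure D2:**
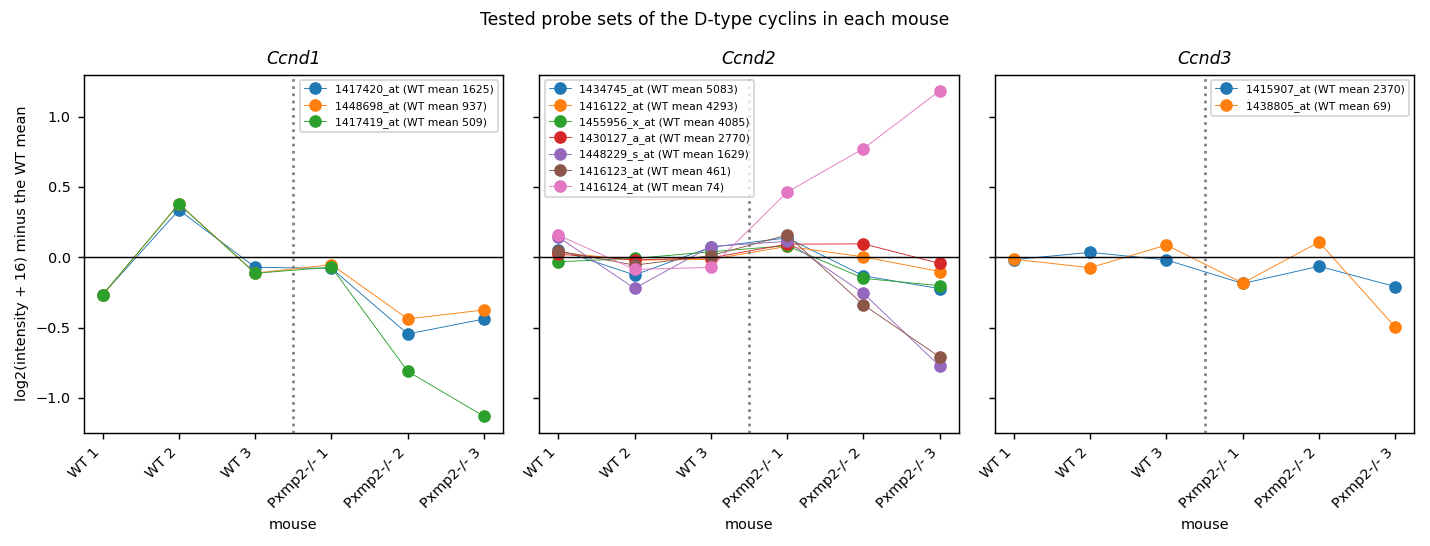
Each tested probe set of the 3 D-type cyclins in each mouse, as log2(intensity + 16) minus its WT mean; thin lines only join the values of 1 probe set. The 3 Ccnd1 probe sets have WT 2 highest and Pxmp2-/- 2 and 3 lowest, while 1416124_at of Ccnd2 lies above the WT mice in all 3 Pxmp2-/- mice and 1448229_s_at and 1416123_at fall below them in Pxmp2-/- 2 and 3.

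The E-type cyclins bind Cdk2 and take the cell from G1 into S phase. For Ccne1 the probe set with the highest level was 1441910_x_at, of a type whose probes may also match other transcripts. It read 1098, 1167 and 1244 in WT and 1185, 1234 and 1105 in Pxmp2-/- mice, with a difference of 0.01 ± 0.09 (SE) and an interval from 0.868-fold to 1.16-fold. Its groups overlapped fully. Probe sets 1422441_x_at of Cdk4 and 1455956_x_at of Ccnd2 are of the same type as 1441910_x_at.

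The other Ccne1 probe set, 1416492_at, varied widely within the WT group, where it read 420, 212 and 167, against 308, 227 and 273 in Pxmp2-/- mice. Its difference of 0.11 ± 0.30 (SE) was thus poorly fixed: it was 0.47 without WT 1, 0.0049 without WT 2, -0.15 without WT 3, 0.01 without Pxmp2-/- 1 and 0.22 without Pxmp2-/- 2. The single Ccne2 probe set, 1422535_at, read 182, 230 and 206 in WT and 332, 202 and 259 in Pxmp2-/- mice. Pxmp2-/- 1 was the highest mouse, and the difference of 0.32 ± 0.17 (SE; adjusted p = 0.386 with limma) was 0.15 without it and 0.49 without Pxmp2-/- 2.

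Of the kinases, Cdk4 was level between genotypes within the precision of 3 mice and Cdk6 read higher in Pxmp2-/- mice without passing. Stretches upstream of the RefSeq start of both genes (GRCm38.p6, strand +) are shown because the pair does the same biochemical work and differs in the E-boxes (CACGTG, the site bound by Myc and its relatives, its own reverse complement) in front of it. E-boxes are in capitals. The Cdk4 stretch is chr10:127063285-127063534 and the Cdk6 stretch is chr5:3343643-3343892, both the 250 bases before the start.
Cdk4: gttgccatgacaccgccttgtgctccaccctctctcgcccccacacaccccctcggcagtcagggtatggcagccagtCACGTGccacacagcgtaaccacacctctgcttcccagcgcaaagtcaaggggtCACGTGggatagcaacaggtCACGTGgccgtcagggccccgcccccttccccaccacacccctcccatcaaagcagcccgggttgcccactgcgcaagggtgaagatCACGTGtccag
Cdk6: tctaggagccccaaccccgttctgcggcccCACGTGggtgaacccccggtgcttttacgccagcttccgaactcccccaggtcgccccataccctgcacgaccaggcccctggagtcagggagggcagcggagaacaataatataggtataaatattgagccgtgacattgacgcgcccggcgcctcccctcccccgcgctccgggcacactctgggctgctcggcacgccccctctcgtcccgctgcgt

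The Cdk4 stretch holds 4 E-boxes, beginning 172, 118, 98 and 11 bases before the start, and that of Cdk6 holds 1, beginning 220 bases before it. Among 32851 RefSeq promoter windows of this length 6.02% hold at least 1 E-box and 7 windows hold 4 or more. These are matches of letters and do not show binding. Of the 10 genes, 6 were found in the promoter table, and the 4 others found (Ccnd3, Ccne1, Cdkn1a and Cdkn1b) had no E-box. Myc, whose protein binds this site and for which Cdk4 is a known target, read 134, 142 and 187 in WT and 219, 166 and 158 in Pxmp2-/- mice, with overlapping groups and a log2 difference of 0.21 ± 0.16 (SE; limma adjusted p = 0.52).

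The Cdk4 probe set with the highest level, 1422441_x_at, read 1045, 1251 and 936 in WT and 1071, 1146 and 1157 in Pxmp2-/- mice, all within the WT range. Its difference was 0.07 ± 0.12 (SE), with an interval from 0.868-fold to 1.27-fold. Probe sets 1422439_a_at and 1422440_at differed by 0.12 ± 0.11 and 0.07 ± 0.13 (SE), again with overlap.

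Cdk6, like Pxmp2 on chromosome 5, had 2 tested probe sets. Probe set 1435338_at read 454, 393 and 443 in WT and 710, 468 and 575 in Pxmp2-/- mice. Every Pxmp2-/- mouse was above every WT mouse, though Pxmp2-/- 2 only just. The difference on the log2 scale was 0.41 ± 0.15 (SE), or 1.33-fold, with an unadjusted limma p of 0.0272 and an adjusted p of 0.256.

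The second Cdk6 probe set, 1455287_at, read 501, 477 and 495 in WT and 718, 485 and 570 in Pxmp2-/- mice and overlapped. Its difference was 0.24 ± 0.14 (SE; limma adjusted p = 0.405). Pxmp2-/- 1 was highest in both probe sets, and without it the differences were 0.26 and 0.10. Without Pxmp2-/- 2 that of 1455287_at was 0.37. The third Cdk6 probe set, 1460291_at, was below the level filter, at 5.96 to 20.4 in WT and 16.2 to 23.2 in Pxmp2-/- mice.

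The Cip/Kip inhibitors did not share a direction. Cdkn1a, whose product p21 is induced by p53, read higher on average in both probe sets. The 120 bases before one of its RefSeq starts (chr17:29093649-29093768, GRCm38.p6, strand +) are shown for the GC boxes (GGGCGG or its reverse complement CCGCCC, the site of Sp1 factors, which are known to drive this gene), in capitals.
Cdkn1a: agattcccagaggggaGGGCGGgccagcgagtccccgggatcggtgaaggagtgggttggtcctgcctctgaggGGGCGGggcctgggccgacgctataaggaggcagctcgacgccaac

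The stretch holds 2 GC boxes, beginning 104 and 46 bases before the start. In the 250-base window a GC box occurs in 32.7% of all promoter windows, and the window at the other Cdkn1a start has none. The probe set with the higher level, 1424638_at, read 507, 602 and 718 in WT and 575, 879 and 770 in Pxmp2-/- mice. Pxmp2-/- 1 fell within the WT range, and the difference was 0.27 ± 0.18 (SE; limma adjusted p = 0.469). It was 0.44 without Pxmp2-/- 1, 0.14 without Pxmp2-/- 2 and 0.15 without WT 1.

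Probe set 1421679_a_at of Cdkn1a read 73.0, 77.6 and 83.05 in WT and 83.06, 108 and 106 in Pxmp2-/- mice. The groups did not overlap, but the lowest Pxmp2-/- mouse and the highest WT mouse were practically equal. The difference was 0.28 ± 0.11 (SE), with an unadjusted limma p of 0.035 and an adjusted p of 0.271. Other p53 targets showed no common shift: of 9 tested, 3 were higher and 6 lower on average, 0 passed at an adjusted p under 0.05 or an unadjusted p under 0.05, and the median was -0.05. Those with the smallest p were Trp53inp1 (0.17 ± 0.13), Sesn2 (-0.16 ± 0.19), Phlda3 (-0.09 ± 0.12) and Mdm2 (-0.06 ± 0.09, log2 difference and SE).

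Cdkn1b, whose product p27 is held mainly by protein turnover, was level within its error. Probe set 1434045_at read 1405, 1064 and 1222 in WT and 1383, 1214 and 1189 in Pxmp2-/- mice, with all 3 Pxmp2-/- mice inside the WT range. The difference was 0.04 ± 0.12 (SE), with an interval from 0.846-fold to 1.25-fold. Probe set 1419497_at was below the level filter, at 11.8 to 21.2 in WT and 14.0 to 36.7 in Pxmp2-/- mice.

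Cdkn1c, an imprinted gene whose product p57 restrains growth in development, read lower on average in Pxmp2-/- mice. Its single probe set, 1417649_at, read 981, 1036 and 1216 in WT and 1047, 736 and 739 in Pxmp2-/- mice. As with Ccnd1, Pxmp2-/- 1 lay within the WT range and the other Pxmp2-/- mice lay below all WT mice. It differed by -0.37 ± 0.16 log2 (SE), or was 1.29-fold lower, with an unadjusted limma p of 0.0489 and an adjusted p of 0.298. Without Pxmp2-/- 1 it was -0.53.

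Other imprinted genes did not follow one direction. Of 10 tested, 0 passed the adjusted threshold, and at an unadjusted p under 0.05 2 were higher and 1 lower. Igf2, a fetal growth factor, read 246, 268 and 234 in WT and 307, 321 and 293 in Pxmp2-/- mice (log2 difference 0.28 ± 0.09, SE; limma adjusted p = 0.228). Mest differed by 0.63 ± 0.22, Meg3 by -0.30 ± 0.12 and Grb10, an adaptor that dampens growth factor receptors, by -0.17 ± 0.09 (SE). The median of the list was 0.01.

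**Figure D3:**
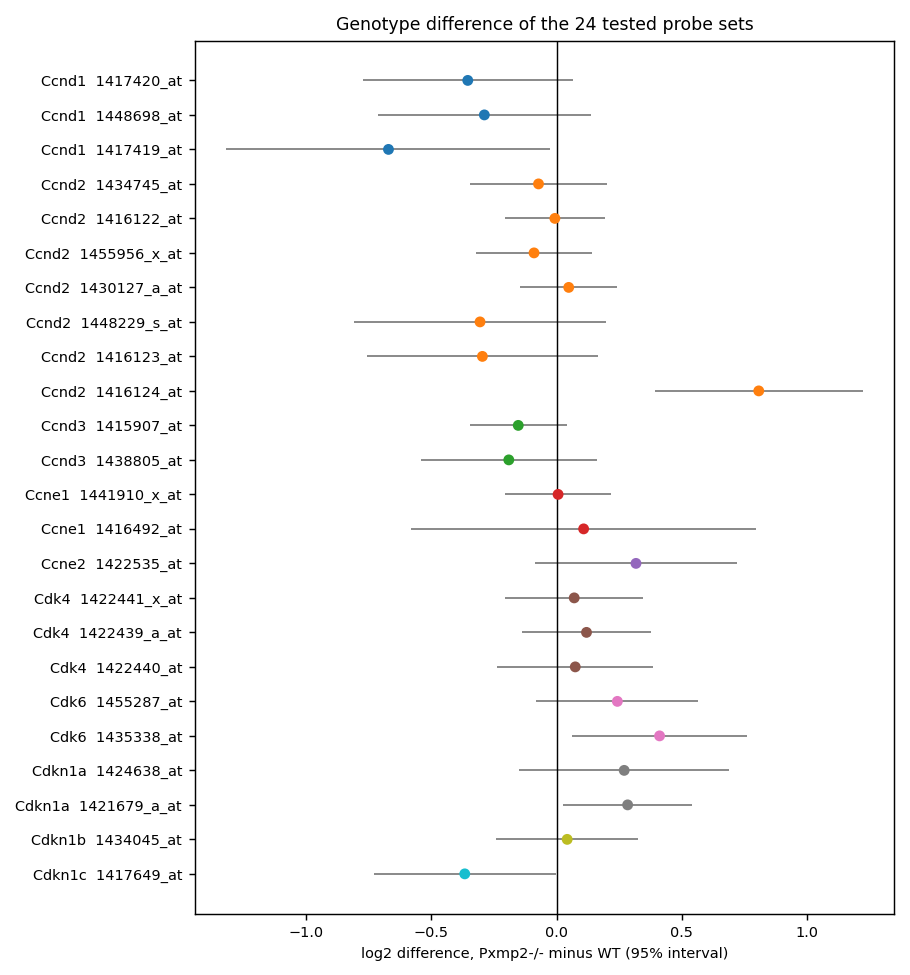
Log2 difference between genotypes (points, Pxmp2-/- minus WT) with its 95% interval from limma (lines) for the 24 tested member probe sets, coloured by gene. The interval lies off 0 for 5 probe sets, those of Ccnd1 (1417419_at), Ccnd2 (1416124_at), Cdk6 (1435338_at), Cdkn1a (1421679_a_at) and Cdkn1c, and none of these passes after adjustment.

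The genes around the members were described with 1 probe set per gene, the one with the highest level. Over all 12775 genes tested this way 0.0391% passed the adjusted threshold, 14.2% had an unadjusted p under 0.05, 22.6% had groups that did not overlap, and the median log2 difference was -0.03. The INK4 inhibitors, which act on Cdk4 and Cdk6, had 3 tested genes and 0 that passed either threshold. Cdkn2b differed by -0.29 ± 0.22, Cdkn2d by 0.20 ± 0.16 and Cdkn2c by 0.16 ± 0.14 (SE). Cdkn2a was below the level filter in the probe set used, at 13.6 to 22.9 in WT and 6.45 to 15.8 in Pxmp2-/- mice.

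Among 12 tested pocket protein and E2F genes, the direct targets and effectors of the kinases, 0 passed either threshold and the median was 0.04. The transcription factor gene E2f4 was the one with groups that did not overlap, at 542, 508 and 557 in WT and 622, 619 and 588 in Pxmp2-/- mice. Its difference of 0.18 ± 0.08 (SE) had a limma adjusted p of 0.316. Differences were 0.16 ± 0.13 for E2f5, 0.08 ± 0.10 for Rb1 and -0.10 ± 0.13 for E2f3 (SE).

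Among 11 tested partners, activators and ubiquitin ligase genes of the G1/S kinases, 0 passed the adjusted threshold, and 1 was lower at an unadjusted p under 0.05. That gene was Cks1b, whose product helps the ligase with Skp2 to mark p27 for destruction. It read 3306, 3227 and 3317 in WT and 3162, 2437 and 2523 in Pxmp2-/- mice. The groups did not overlap, with Pxmp2-/- 1 just under the WT mice, and the difference was -0.29 ± 0.11 (SE; limma adjusted p = 0.279). Cyclin A2 (Ccna2) differed by 0.23 ± 0.14, Fbxw7, the ligase subunit that marks cyclin E, by -0.16 ± 0.11 and Ccnh by -0.14 ± 0.10 (SE).

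Of 13 tested upstream regulators 0 passed the adjusted threshold, and 1 was higher and 1 lower at an unadjusted p under 0.05. The epidermal growth factor receptor gene Egfr read 741, 649 and 914 in WT and 353, 381 and 303 in Pxmp2-/- mice, a log2 difference of -1.11 ± 0.14 (SE) with a limma adjusted p of 0.0846. Fos, a partner in the AP-1 complex that acts on Ccnd1, read 72.1, 80.0 and 73.6 in WT and 138, 95.5 and 149 in Pxmp2-/- mice (0.63 ± 0.15, SE; adjusted p = 0.174). Foxo1, which can raise Cdkn1b, differed by -0.27 ± 0.13 and Max, the partner of Myc, by 0.18 ± 0.12 (SE).

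**Figure D4:**
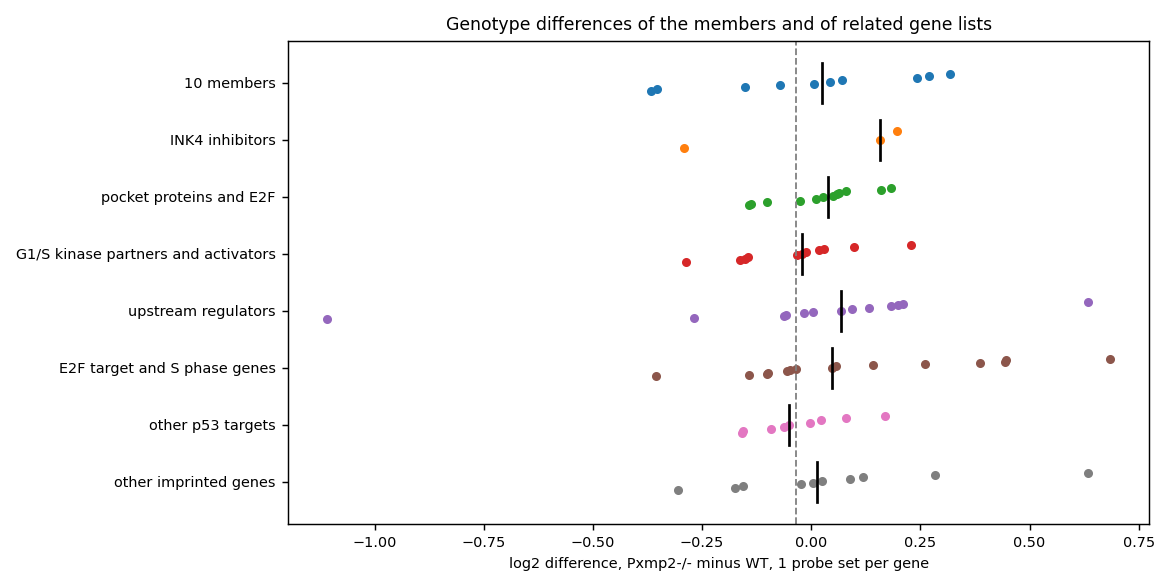
Log2 difference between genotypes (Pxmp2-/- minus WT) of each tested gene, 1 probe set per gene, for the 10 members and 7 related lists; black bars are list medians and the dashed line is the median of all tested genes (-0.03). The list medians lie between -0.05 and 0.16, and the points farthest from 0 are Egfr (-1.11), Top2a (0.68), Mest (0.63) and Fos (0.63).

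Transcripts that mark passage into S phase and beyond had no common direction, and the sign of their median depended on which mouse was left out. Of 15 tested, 0 passed either threshold, 8 were higher and 7 lower on average, and the median was 0.05. Top2a, which untangles replicated DNA, read 158, 316 and 254 in WT and 554, 266 and 386 in Pxmp2-/- mice (0.68 ± 0.30, SE; limma adjusted p = 0.307). Pxmp2-/- 1 was the highest mouse for 10 of the 15 genes, where it was so for 17.5% of all tested genes. WT 1 was the lowest mouse for 7 of the 15, and for 14.9% of all tested genes. Without Pxmp2-/- 1 the median of the list was -0.16, and that of all tested genes -0.05. The list's median was also below 0 without WT 1 (-0.09) and without WT 3 (-0.03), and was 0.16, 0.15 and 0.09 without WT 2, Pxmp2-/- 2 and Pxmp2-/- 3.

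The other S phase genes with the smallest p were mixed in direction. Cdc6, a replication licensing factor, differed by -0.36 ± 0.16, Mcm7 of the replicative helicase by -0.14 ± 0.08 and Pcna, the sliding clamp, by 0.14 ± 0.10 (SE). Among the 24 member probe sets Pxmp2-/- 1 was highest in 7 and lowest in 0, and Pxmp2-/- 3 was highest in 2 and lowest in 9. Over all tested probe sets Pxmp2-/- 1 was highest in 15.6% and lowest in 16.1%, and Pxmp2-/- 3 was highest in 12.0% and lowest in 25.4%. Ccne2 and both tested Cdk6 probe sets were among those with Pxmp2-/- 1 at the top, and the others were all of Ccnd2. Most of those with Pxmp2-/- 3 lowest were also of Ccnd2. By the leading probe set of each gene, 3 of the 10 members were highest in Pxmp2-/- 1 and 2 were lowest in Pxmp2-/- 3.

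**Figure D5:**
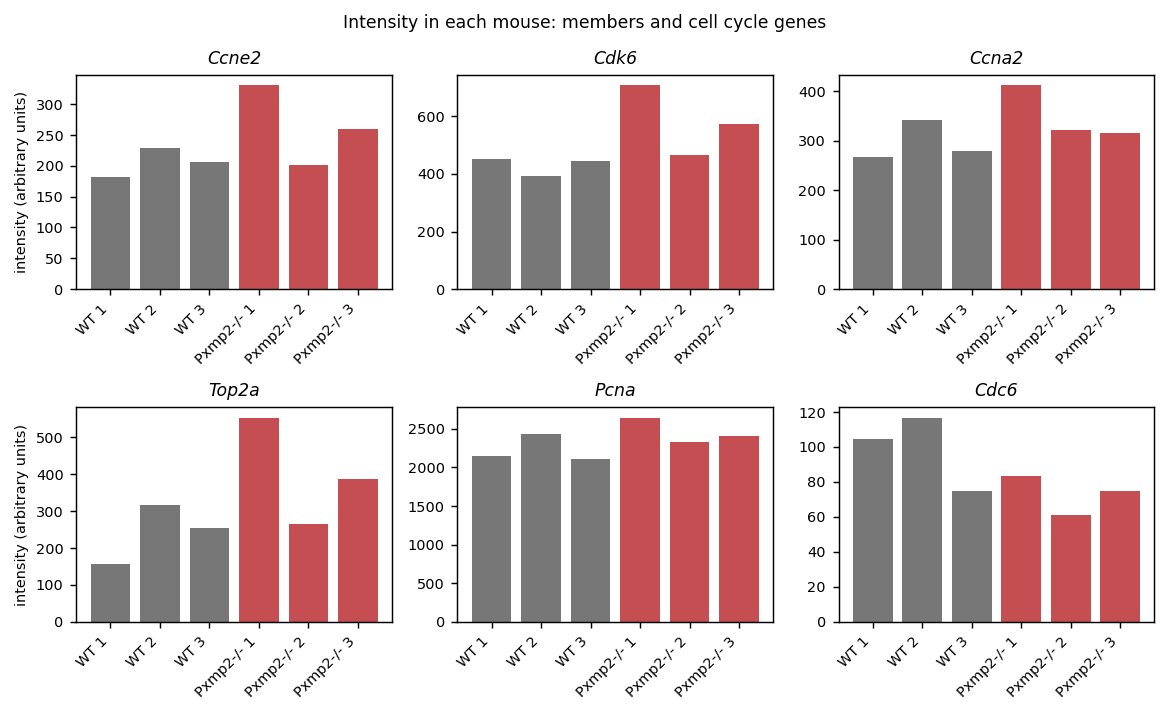
Intensity (arbitrary units, axis from 0) in each mouse for 2 members (Ccne2, and Cdk6 by 1435338_at) and for Ccna2, Top2a, Pcna and Cdc6, with WT mice in grey and Pxmp2-/- mice in red. Pxmp2-/- 1 is the highest mouse in all panels but that of Cdc6, where WT 2 is highest at 117.

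The summed marker levels of macrophages, endothelium and luminal epithelium lay apart between genotypes. Those of lymphocytes, fibroblasts, basal epithelium, adipocytes and skeletal muscle overlapped. In these lists 0 genes passed the adjusted limma threshold. The sum of the 10 luminal markers, most of them below the level filter, was 467 to 512 in WT and 560 to 626 in Pxmp2-/- mice. The 3 above the filter were mixed: Cdh1 differed by 1.01 ± 0.36, Cldn4 by 0.20 ± 0.14 and Krt19 by -0.39 ± 0.15 (log2, SE). Cdh1, which is part of the sum, read 117, 39.8 and 40.8 in WT and 200, 105 and 116 in Pxmp2-/- mice. Its groups overlapped. How much of the gap between the luminal sums comes from Cdh1 alone was not tested. At an unadjusted p under 0.05, 5 macrophage markers were higher and 7 endothelial markers lower. Over all tested genes 14.2% were under it and 22.6% had groups without overlap, in either direction. Of 8 macrophage markers 4 were higher without overlap, and Mrc1 (-0.19) and Cd163 (-0.02) were lower on average. The summed level of the 8 was 7518 to 8175 in WT and 9157 to 11630 in Pxmp2-/- mice, highest in Pxmp2-/- 1. The summed level of 8 lymphocyte markers was 1086 to 1325 in WT and 1273 to 2591 in Pxmp2-/- mice. Of these, 5 were above the level filter, 1 of them higher without overlap, and Cd3e, Cd4 and Cd79a were below it. In Pxmp2-/- 1, 2 and 3 the macrophage sums were 11630, 9157 and 9188 and the lymphocyte sums 1993, 2591 and 1273. In the same order Cdk6 1435338_at read 710, 468 and 575, and Cdkn1a 1424638_at read 575, 879 and 770. Cdkn1a was thus lowest of these mice where the macrophage sum was highest, and Cdk6 where the lymphocyte sum was highest. Cdk6 and Cdkn1a read higher on average alongside these markers, and the part of such cells in their values was not tested.

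Vascular and stromal markers read lower alongside some of the members. Of 9 endothelial markers 7 were lower without overlap and 1, Pecam1 (0.05), was higher on average. The summed level was 19050 to 20240 in WT and 15320 to 17190 in Pxmp2-/- mice. Of 8 fibroblast markers 3 were lower and 1 higher without overlap, with summed levels of 42910 to 52100 and 34860 to 43450. WT 2 was the highest mouse for both sums and for all 3 Ccnd1 probe sets. Other mice did not match in this way. The fibroblast sum of Pxmp2-/- 2 (43450) was above that of WT 1 (42910). Pxmp2-/- 2 was nevertheless the lowest mouse for Ccnd1 1417420_at (1091) and for Cdkn1c (736), and Cdkn1c was highest in WT 3 (1216). The part of these cells in the values of Ccnd1, Ccnd3 and Cdkn1c was not tested.

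Ccnd1 varied most over the 6 mice among the members' leading probe sets, with an SD of 0.32 on the log2 scale. Of 12774 other genes, 141 had a Pearson correlation above 0.9 with its probe set 1417420_at over the 6 arrays. The 4 most alike were Plxnd1 (r = 0.994), Utp20 (0.993), Cd248 (0.989), a marker of stromal and perivascular cells, and Arl1 (0.987). Cd248 read 255, 415 and 319 in WT and 295, 213 and 213 in Pxmp2-/- mice, with the highest value in WT 2 as for Ccnd1. With 6 arrays and so many genes compared, such values describe these mice only.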

How the data were processed

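Biotin-labelled total RNA went onto Affymetrix arrays, following the maker's protocol per the labels. The authors deposited intensities on a linear scale for 45037 probe sets. The sources used here do not say how they summarised and scaled them. The platform annotation named 1 gene for 34945 probe sets, left 9160 without a gene and gave 932 more than 1. Gene identifiers, chromosomes and promoter sequences came from RefSeq tables of GRCm38.p6, and all 10 members matched by Entrez number. All 6 columns matched a sample (0 unmatched), and 0 were identical.

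Values were transformed to log2(intensity + 16) with no further scaling, filtered at the 40th percentile of the mean (6.23) and fitted by lmFit and eBayes of limma 3.58.1 (R 4.3.3), 3 against 3 mice, two-sided. Errors are moderated SEs. The number of arrays limits the precision. The procedure was tested on simulated data. Named were all members, Pxmp2, up to 4 genes per pathway list with the smallest p, and the 4 genes most like the most variable member. Myc and the cell type markers were named outside this rule. Members and lists were chosen with earlier results of these data known. Alternatives were other scalings, pseudocounts, filters and variance models, array weights, a replicate block and leaving out each array. Plots used matplotlib 3.10.9.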

Additional observations from a re-analysis of the deposited data

How the results depend on the processing

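No member probe set passed in any alternative run, nor at an adjusted p under 0.10 with the settings of the report. Members at an unadjusted limma p under 0.05 numbered between 1 (without WT 2 or Pxmp2-/- 3) and 8 (without Pxmp2-/- 1). The share of all tested probe sets under it moved too. That share was 14.55% without WT 2, 11.35% without Pxmp2-/- 3 and 20.72% without Pxmp2-/- 1. At an adjusted p under 0.05 the count over all probe sets was 17. It became 1 without the level filter, 36 with a mean-variance trend and 26 with array weights. With single arrays left out it was 1 to 33, and with the replicate block 1. With that block 3 members had an unadjusted p under 0.05, beside 14.85% of all tested probe sets. In their deviations from the group mean, same-numbered arrays correlated at 0.02, 0.04 and -0.12. With 3 arrays per group these values cannot show whether same-numbered mice were handled together. The labels give only a mouse number. Among pathway genes 1, Egfr, passed after median centring, with a pseudocount of 64 and with the trend. Calls at an unadjusted p under 0.05 were 2842 lower and 1655 higher, and 2128 and 2130 after quantile normalization. Among the 24 member probe sets 5 were under it in the main run, beside 16.6% of all, and 2 after quantile normalization, beside 15.8%. That scaling gave -0.11 for Ccnd3 1415907_at, -0.22 for Ccnd1 1448698_at and -0.295 for Cdkn1c. It gave -0.22 for Ccnd3 1438805_at and 0.47 for Cdk6 1435338_at, both farther from 0 than in the main run.

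Of 357 differences of member probe sets under the alternatives 344 kept their sign, and 13, from 7 probe sets, turned. Ccnd2 1416122_at was 0.0114 after quantile normalization and Ccne1 1441910_x_at -0.0030 after median centring. Leaving out single arrays gave -0.0488 to 0.0405 for Ccnd2 1416122_at, -0.18 to 0.0035 for Ccnd2 1434745_at, -0.0378 to 0.0509 for Ccne1 1441910_x_at and -0.15 to 0.47 for Ccne1 1416492_at. It gave -0.0241 to 0.182 for Cdk4 1422441_x_at, -0.0177 to 0.218 for Cdk4 1422440_at and -0.0562 to 0.141 for Cdkn1b 1434045_at. The mean over all tested Ccnd2 probe sets was 0.0122, against -0.07 for 1434745_at. The cause of these turns was not tested.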
